A study of Mus musculus with 9 samples.

Results

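The 10 genes described here, which studies of B cell lymphoma have tied to loss of the histone methyltransferase KMT2D, were followed through whole-genome bisulfite sequencing of mouse splenic B cells. They were Tnfaip3, Traf3, Map3k8, Cd40, Tnfrsf14, Fas, Socs3, Sgk1, Klf6 and Trp53, chosen by name, and all 10 were found among 20665 protein-coding genes on the autosomes. Each gene was read over its annotated span on the mouse build GRCm38 plus 5000 bp on each side, which together hold 5750 CpGs. Bulk spleen B cells came from mice homozygous for a Kmt2d point mutation (HOM), heterozygous for it (HET) or wild type (WT). The mutation changes A to T at position 98835228 of chromosome 15 and gives an isoleucine-to-asparagine change in the protein. The labels list 2 B cell samples of each genotype, and 1 sample each of HOM, HET and WT blood depleted of B cells, which was not analysed here. The deposited table holds 1 pair of B cell count columns for each genotype, here called a library. Differences between genotypes could not be checked against replicates. The column names of the HOM and HET libraries, but not of the WT library, carry the word ENU. Which of the 2 labelled samples a column holds, or whether it pools them, is not stated in the labels or the file header, and neither is the age of the mice.

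KMT2D places the mono-methyl mark on lysine 4 of histone H3, mainly at enhancers, and it is among the genes most often mutated in follicular and diffuse large B cell lymphoma. The enzymes that methylate DNA bind histone H3 best where lysine 4 carries no methyl group, so that CpG-rich gene starts and active enhancers are usually free of DNA methylation. The 10 genes hold brakes on NF-kB and JAK-STAT signalling, receptors of the TNF family, a kinase, a transcription factor and a tumour suppressor, and lymphomas often carry mutations of several of them.

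Gene starts of this set range from 2 to 59 CpGs, and 7 of the RefSeq promoter sequences (250 bases before to 50 bases after a start, build GRCm38.p6, 5′ to 3′ on the strand of the gene, CpGs in capitals) are shown. They let CpG-rich and CpG-poor starts be compared, for Tnfaip3 and Sgk1 within the same gene. Tnfaip3 has a start with 22 CpGs (chr10:19015361-19015660, minus strand) and an inner start with 6 CpGs (chr10:19011914-19012213, minus strand). Sgk1 has 6 annotated starts, of which the one with 28 CpGs (chr10:21994416-21994715, plus strand) and those with 8 CpGs (chr10:21978422-21978721, plus strand) and 6 CpGs (chr10:21991973-21992272, plus strand) are given. Traf3 has the start richest in CpGs, with 59 (chr12:111166120-111166419, plus strand), and Tnfrsf14 the poorest, with 2 (chr4:154928028-154928327, minus strand).
Tnfaip3, start with 22 CpGs: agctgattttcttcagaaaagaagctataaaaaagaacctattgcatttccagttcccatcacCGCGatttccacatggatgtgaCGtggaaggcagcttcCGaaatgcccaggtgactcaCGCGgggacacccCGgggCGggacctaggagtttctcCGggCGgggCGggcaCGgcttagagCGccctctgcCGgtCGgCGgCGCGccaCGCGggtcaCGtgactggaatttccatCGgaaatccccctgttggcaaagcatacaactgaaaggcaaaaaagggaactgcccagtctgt
Tnfaip3, inner start with 6 CpGs: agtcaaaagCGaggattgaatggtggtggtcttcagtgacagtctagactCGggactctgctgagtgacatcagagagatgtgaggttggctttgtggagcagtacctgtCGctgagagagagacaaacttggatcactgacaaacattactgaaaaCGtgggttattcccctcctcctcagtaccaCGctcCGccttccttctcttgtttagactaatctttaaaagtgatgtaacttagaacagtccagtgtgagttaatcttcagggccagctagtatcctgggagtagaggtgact
Sgk1, start with 28 CpGs: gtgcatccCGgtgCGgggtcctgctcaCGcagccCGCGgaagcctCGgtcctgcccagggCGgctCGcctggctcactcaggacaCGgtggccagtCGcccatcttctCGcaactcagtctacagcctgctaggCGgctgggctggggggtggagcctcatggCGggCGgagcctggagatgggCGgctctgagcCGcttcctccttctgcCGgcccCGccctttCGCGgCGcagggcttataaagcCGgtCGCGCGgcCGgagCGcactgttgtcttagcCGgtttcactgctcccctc
Sgk1, start with 8 CpGs: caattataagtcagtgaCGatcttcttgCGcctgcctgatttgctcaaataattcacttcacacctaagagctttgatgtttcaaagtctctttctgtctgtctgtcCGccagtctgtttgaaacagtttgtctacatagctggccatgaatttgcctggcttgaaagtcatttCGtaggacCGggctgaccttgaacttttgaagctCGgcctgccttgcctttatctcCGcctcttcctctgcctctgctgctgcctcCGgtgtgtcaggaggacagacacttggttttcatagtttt
Sgk1, start with 6 CpGs: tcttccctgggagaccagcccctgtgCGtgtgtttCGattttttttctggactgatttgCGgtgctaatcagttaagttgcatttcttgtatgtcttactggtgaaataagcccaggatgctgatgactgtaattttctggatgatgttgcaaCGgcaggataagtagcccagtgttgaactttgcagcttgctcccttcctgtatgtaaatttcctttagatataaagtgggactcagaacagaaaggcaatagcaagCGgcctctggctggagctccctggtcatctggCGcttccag
Traf3, start with 59 CpGs: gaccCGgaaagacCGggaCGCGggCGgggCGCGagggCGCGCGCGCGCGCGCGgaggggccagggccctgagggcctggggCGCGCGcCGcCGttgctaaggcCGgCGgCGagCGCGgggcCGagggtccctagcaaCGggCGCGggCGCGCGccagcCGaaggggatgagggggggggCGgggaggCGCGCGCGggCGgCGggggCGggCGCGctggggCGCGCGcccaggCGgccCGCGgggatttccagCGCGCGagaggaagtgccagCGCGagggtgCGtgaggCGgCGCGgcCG
Tnfrsf14, start with 2 CpGs: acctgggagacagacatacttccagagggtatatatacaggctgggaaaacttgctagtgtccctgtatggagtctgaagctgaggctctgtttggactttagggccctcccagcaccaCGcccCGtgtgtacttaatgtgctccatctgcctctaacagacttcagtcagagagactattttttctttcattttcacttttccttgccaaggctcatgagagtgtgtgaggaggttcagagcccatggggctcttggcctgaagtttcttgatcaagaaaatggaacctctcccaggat

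The starts with at least 10 CpGs, here called rich in CpGs, were free or nearly free of methylation in every library. A level is the share of reads over the CpGs of a region that call them methylated. At the Tnfaip3 start shown above with 22 CpGs, 0 of 238 CpG reads were methylated in HOM, 0 of 307 in HET and 0 of 223 in WT cells, which allows levels of up to 1.26% in HOM, 0.977% in HET and 1.35% in WT cells. At the Traf3 start, 0 of 280 reads were methylated in HOM, 0 of 369 in HET and 0 of 103 in WT cells, which allows up to 1.07% in HOM, 0.813% in HET and 2.91% in WT cells. At the Sgk1 start with 28 CpGs the level was 0.389% in HOM cells, with 0 of 603 reads in HET and 0 of 243 reads in WT cells. The Socs3 start had 0 of 196 methylated reads in HOM, 0 of 225 in HET and 3 of 220 (1.36%) in WT cells. The Fas, Klf6 and Trp53 starts stood at 1.82%, 0.649% and 0% in HOM cells, at 0%, 0% and 0.461% in HET cells, and at 0% each in WT cells. The Sgk1 start with 10 CpGs had 0 of 92 methylated reads in HOM, 0 of 162 in HET and 0 of 89 in WT cells. Some starts poor in CpGs held methylation in all libraries. The inner Tnfaip3 start with 6 CpGs stood at 51.0% in HOM, 62.7% in HET and 50.9% in WT cells. The Sgk1 start with 8 CpGs stood at 84.4% in HOM, 87.1% in HET and 89.5% in WT cells, and the one with 6 CpGs at 21.9% in HOM, 13.7% in HET and 15.2% in WT cells. Other starts poor in CpGs were low. The Sgk1 start with 3 CpGs had 5 of 80 methylated reads in HOM, 4 of 80 in HET and 8 of 95 in WT cells. The Tnfrsf14 start, with 2 CpGs, had 1 of 26 methylated reads in HOM, 0 of 19 in HET and 0 of 30 in WT cells, but too few reads for a test.

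Regions were tested from a minimum of 3 CpGs with 30 CpG reads in each of the libraries. A region was called when 2 libraries differed by at least 10 percentage points with an adjusted p below 0.05 (Fisher's exact test of methylated against unmethylated reads, two-sided, with Benjamini-Hochberg adjustment over the autosomal regions of that kind). Such a test compares 2 libraries, not 2 genotypes, and intervals cover counting error only. Both treat CpGs on the same read as separate observations, which makes p-values smaller and intervals narrower than independent reads would. Promoter sequences were at hand for 8 of the 10 genes, with 14 starts, of which 12 were tested and 9 lay below 10% in every library; over all genes 61.7% of the tested starts did so. None of the 12 starts was called between HOM and WT, between HET and WT or between HOM and HET, where 0.722%, 0.453% and 0.821% of all tested starts were called. A letter pattern resembling the NF-kB binding site, GGAANTNCC (GGNANTTCC on the other strand), is in 4.71% of 32851 promoter sequences. It occurs 3 times in the Tnfaip3 start with 22 CpGs and 2 times in the Traf3 start, with no overlap among these matches, and in none of the other 12 sequences of the 10 genes.

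**Figure D1:**
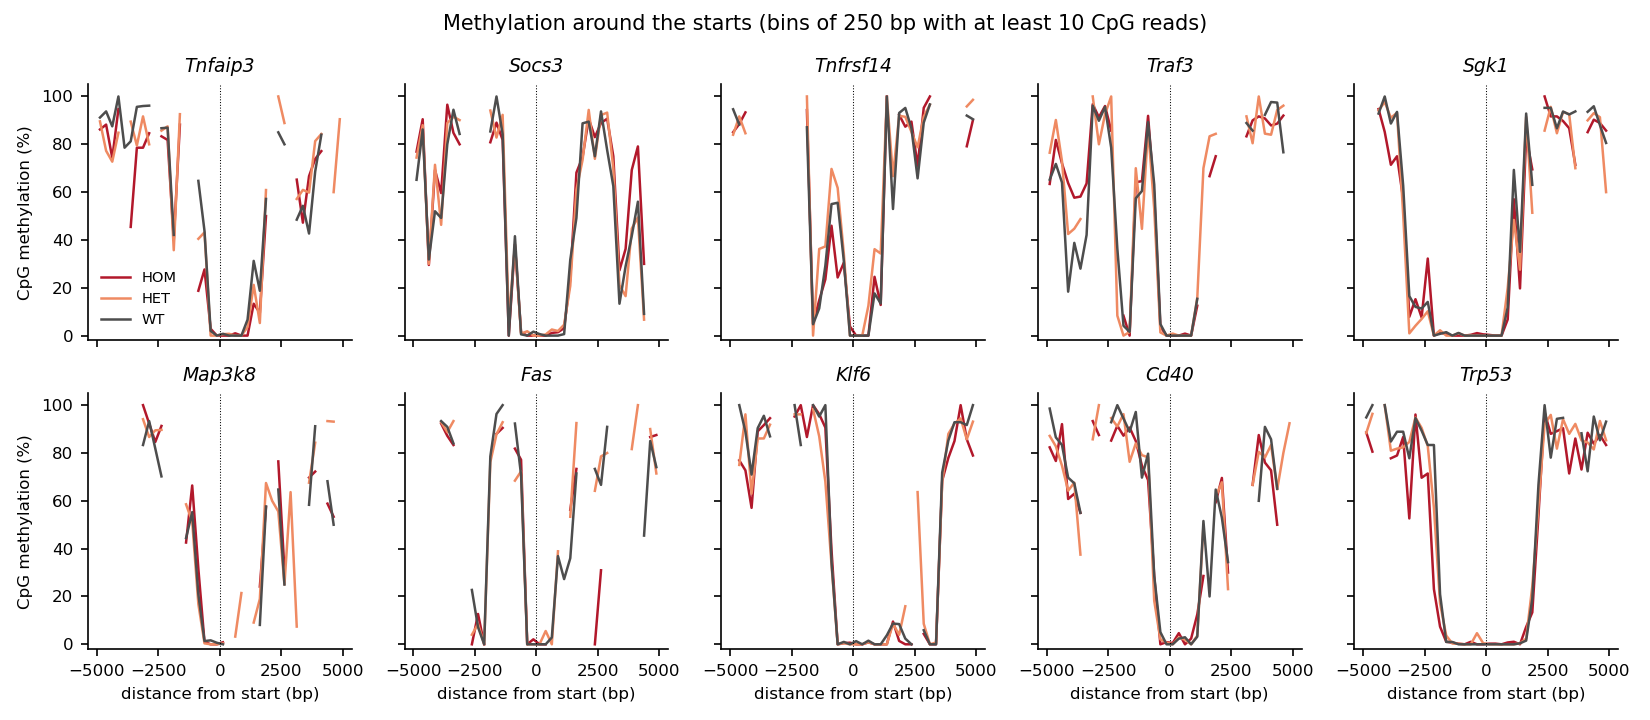
CpG methylation (%, bins of 250 bp with at least 10 CpG reads) against distance from the gene start, in the direction of the gene, for HOM (red), HET (orange) and WT (grey) B cells; for Map3k8 and Cd40, whose strand is not in the tables used here, the less methylated gene end stands in for the start. Every gene has a valley near 0% at its start, and the 3 lines differ mainly on the slopes, in the flanks and inside genes. Wide gaps lie in the bins centred at -4125 to -3625 bp of Traf3 and around 2375 bp inside Fas.

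The 3 libraries differed in depth and in global level, which bears on every comparison that follows. They held 215454437 CpG reads (HOM), 282430649 (HET) and 200824258 (WT), or 9.85, 12.9 and 9.18 per CpG. Far from CpG islands the level was 78.1% in HOM, 80.9% in HET and 81.6% in WT cells, so that HOM stood -3.44 and HET -0.666 points from WT. The start windows of B cell genes such as Pax5 and Ebf1 had median levels of 26.3% in HOM, 21.5% in HET and 27.3% in WT cells, with 7 of 8 below 50% in each library. Those of T cell genes had medians of 54.8% (range 41.6 to 63.7) in HOM, 74.1% (30.2 to 80.1) in HET and 55.6% (36.7 to 71.3) in WT cells, with 1 of 8 below 50% in HOM and 2 of 8 in both HET and WT. Myeloid genes had medians of 52.2% in HOM, 59.7% in HET and 36.5% in WT cells, with 3 of 7 below 50% in HOM and HET and 4 of 7 in WT, and genes of red cells and platelets 63.7% in HOM, 60.4% in HET and 60.1% in WT cells, with 2 of 6 below 50% in each. In bulk cells a level that differs in every cell and a different mix of cells cannot be told apart. The part of these marker levels in the differences below was not tested.

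Over the 10 genes, the called differences lay outside the CpG-rich starts. Between HOM and WT cells, the called low-methylated runs differed by -15.8 to 44.4 percentage points and the called far ends of genes by -42.5 to -10.1. The -42.5 points belong to Tnfrsf14, where only 4 of 16 CpGs were read in both libraries. On those 4 CpGs HOM stood 9.52 points above WT. The far-end calls of Traf3 and Fas ended under 6 of 10 and 5 of 8 alternative settings. The bodies of the genes followed the small genome-wide loss in HOM. Windows at gene ends (1000 bp outside to 500 bp inside each end) were called between HOM and WT at 3 of 20, all lower in HOM; over all genes 5.22% of such windows were called. Between HET and WT 1 of 20 was called, higher in HET (2.52% of all windows), and between HOM and HET 3 of 20, all lower in HOM (4.34%). Of the 10 gene bodies none was called in any of the 3 comparisons, where 3.22%, 1.34% and 2.33% of all bodies were. Of 11 CpG islands in or beside the genes none was called (2.11%, 1.26% and 1.82% of all islands). Of 22 outer island borders of 500 bp, 21 had the reads for a test and 1 was called, lower in HOM than in WT (1.81% of all borders), with none between HET and WT (0.952%) or between HOM and HET (1.66%). Low-methylated runs are stretches of at least 4 CpGs and 100 bp below 50% in the mean of the 3 libraries, outside islands and borders, and often mark enhancers. The genes had 40 such runs, all tested. Between HOM and WT 4 were called, 2 higher and 2 lower in HOM (5.25% of all runs); between HET and WT 2, both higher in HET (4.18%); and between HOM and HET 7, of which 4 were higher and 3 lower in HOM (5.16%). The counts rest on few regions, and nothing particular to these genes is read from them.

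**Figure D2:**
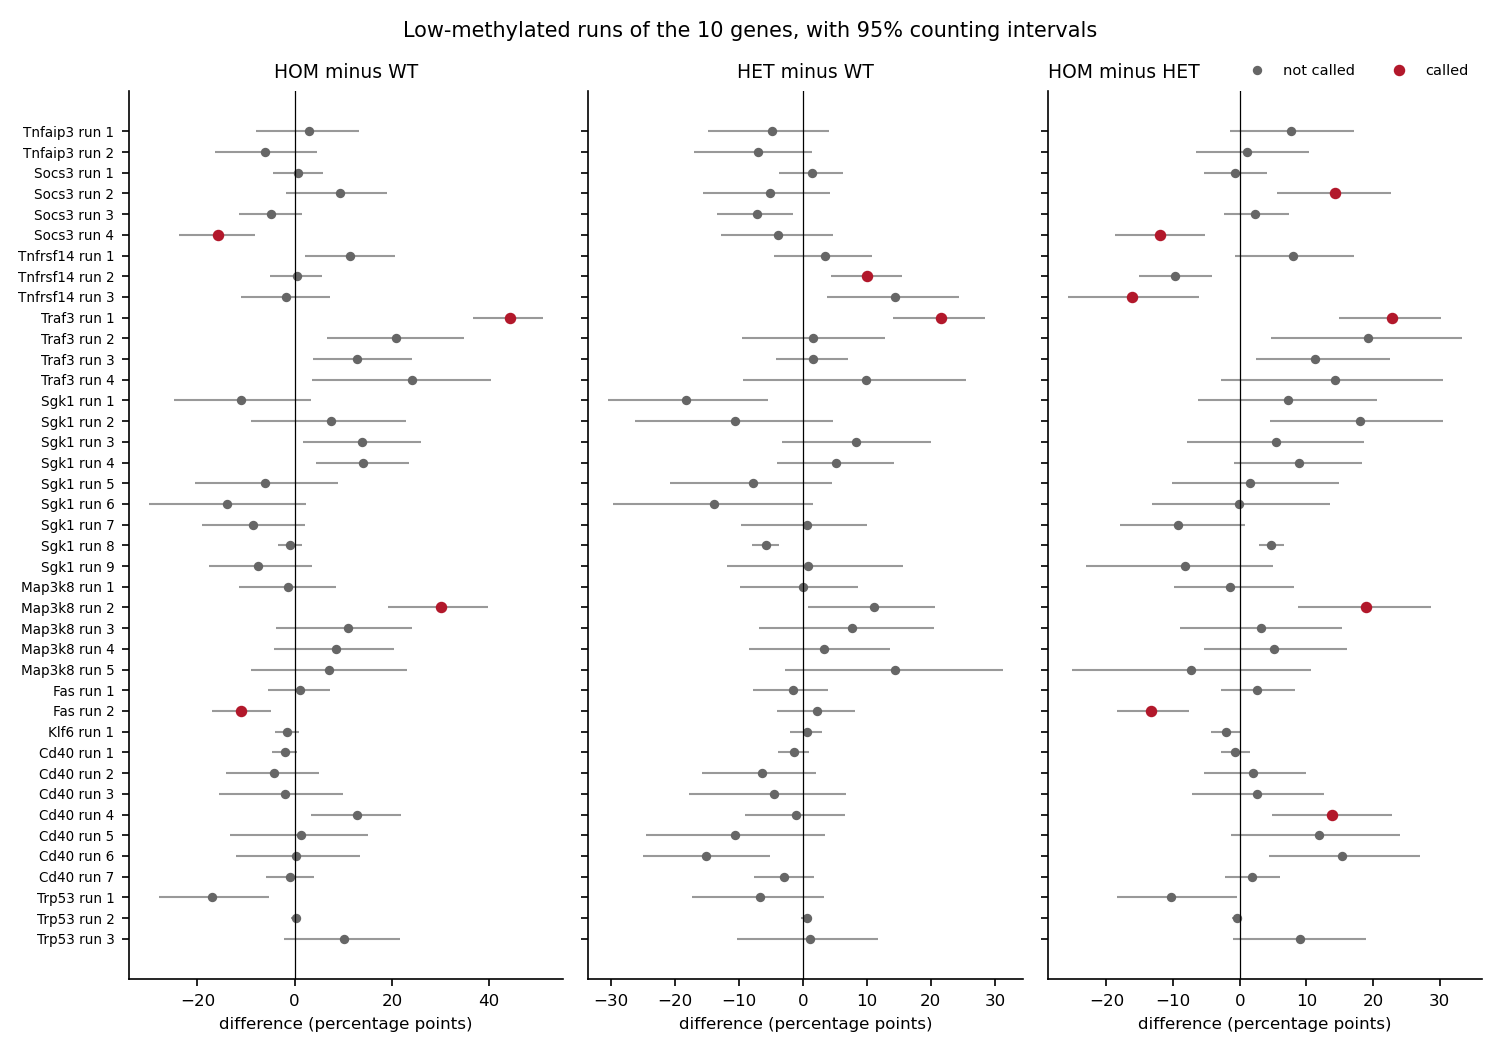
Difference in methylation (percentage points, with 95% Newcombe counting intervals) of the 40 low-methylated runs of the 10 genes, numbered along the chromosome within each gene, for HOM minus WT, HET minus WT and HOM minus HET; red points are called, grey ones are not. Traf3 run 1 stands apart at 44.4 points in HOM minus WT and 21.6 in HET minus WT, and Map3k8 run 2 follows at 30.1 in HOM minus WT.

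Traf3, an adaptor that keeps the non-canonical NF-kB pathway off in resting B cells, held the largest difference among the 40 runs. In its 5′ flank, at chr12:111162214-111162387, 3983 bp before the start, a run of 7 CpGs stood at 60.5% in HOM cells (95% Wilson interval 54.8 to 65.8, 301 CpG reads), 37.7% in HET cells (32.4 to 43.2, 308 reads) and 16.1% in WT cells (12.0 to 21.3, 236 reads). HOM was 44.4 points above WT (adjusted exact p = 2.15e-22), HET 21.6 points above WT (adjusted exact p = 6.71e-06), and HOM 22.8 points above HET (adjusted exact p = 4.93e-06). The 3 libraries were ordered the same way at each of the 7 CpGs, where single levels ran over 41.0 to 68.1% in HOM, 20.6 to 50% in HET and 8.33 to 30.6% in WT cells. The run lies in the span of 4930595D18Rik, a long non-coding RNA gene that overlaps the start of Traf3. Its read depth was high in all 3 libraries, at 43.0, 44.0 and 33.7 reads per CpG in HOM, HET and WT cells, above the 95th percentile of all runs (26.7, 33.9 and 23.8); the part of this in the result was not tested. With counts divided by how many CpGs share 1 read length, HOM still differed from WT (adjusted exact p = 0.000119, and 3.72e-25 to 0.000119 over 9 alternatives), while the other 2 differences were no longer called.

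The neighbouring runs of Traf3 pointed the same way with smaller differences that were not called. The next run, at chr12:111162497-111162723, stood at 39.7% in HOM, 20.4% in HET and 18.8% in WT cells (HOM minus WT adjusted exact p = 0.0793). Another run nearer the start, at chr12:111164292-111164939, stood at 19.1% in HOM, 7.81% in HET and 6.25% in WT cells (HOM minus WT adjusted exact p = 0.0835). The island over the start, with 151 CpGs, stayed at 0.115% in HOM, 0.250% in HET and 0.224% in WT cells, and the outer border inside the gene had 0 methylated reads in all 3 libraries. At the far end of the gene the window stood at 77.0% in HOM (72.2 to 81.2), 88.4% in HET (85.0 to 91.2) and 87.1% in WT cells (82.4 to 90.7), with HOM minus WT at -10.1 points (adjusted exact p = 0.0267) and HOM minus HET at -11.4 points (adjusted exact p = 0.00134). HOM was lower at 17 of 23 CpGs against WT. With levels scaled to an equal genome-wide level far from islands, the difference between HOM and WT was -6.87 points and not called. Its call ended under 6 of 10 alternatives, over which it ran from -10.8 to -3.21 points, and that between HOM and HET under 5 of 10 (-13.9 to -6.17 points). Past that end a run at chr12:111269103-111269246 stood higher in HOM, at 42.9%, against 28.6% in HET and 18.8% in WT cells (HOM minus WT 24.1 points, adjusted exact p = 0.225, not called). Also beyond the gene, the border of an island that faces Amn and the long non-coding RNA gene Gm51960 stood at 43.2% in HOM, 54.5% in HET and 58.4% in WT cells (HOM minus WT -15.2 points, adjusted exact p = 0.0494), lower in HOM at 11 of 13 CpGs. That call ended under 7 of 10 alternatives.

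**Figure D3:**
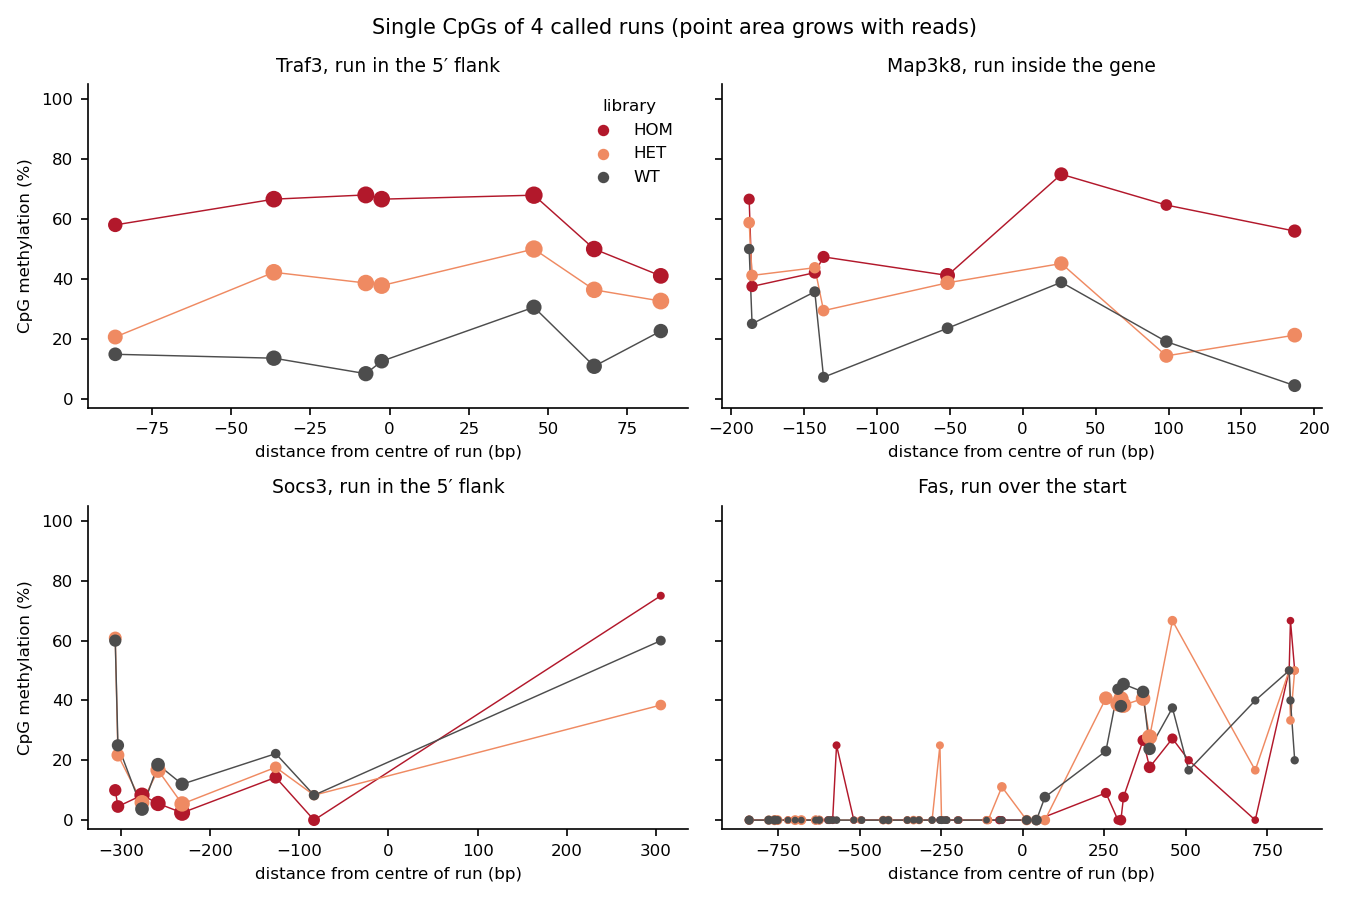
Methylation of single CpGs (%) against the distance from the centre of the run (bp) in 4 called runs, with HOM in red, HET in orange and WT in grey, and point area growing with reads. In Traf3 the order HOM, HET, WT from the top holds at 7 of 7 CpGs, in Map3k8 HOM is above WT at 8 of 8, in Socs3 HOM is below WT at 6 of 8, and in Fas the difference lies beyond an unmethylated start.

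Map3k8 encodes the kinase TPL2, which links NF-kB1 p105 to the ERK pathway. A run of 8 CpGs inside the gene, at chr18:4336392-4336767, was the other one higher in HOM than in WT. It stood at 53.8% in HOM cells (46.3 to 61.0, 173 reads), 34.7% in HET cells (28.3 to 41.7, 190 reads) and 23.7% in WT cells (17.2 to 31.6, 131 reads). HOM was 30.1 points above WT (adjusted exact p = 1.63e-05), at 8 of 8 CpGs, and 19.0 points above HET (adjusted exact p = 0.0105). HET was 11.1 points above WT, at 7 of 8 CpGs, and this was not called (adjusted exact p = 0.252). Dividing the counts by the CpGs of 1 read ended both calls, and the difference between HOM and WT stayed between 28.4 and 32.4 points over 9 alternatives. The other 4 runs of Map3k8 ran over 11.4 to 35.1% in HOM, 12.8 to 33.3% in HET and 12.8 to 24.1% in WT cells without a call. The less methylated end of the gene, which holds its island, stood at 2.81% in HOM, 1.76% in HET and 2.66% in WT cells. The other end stood at 83.5% in HOM, 88.5% in HET and 95.7% in WT cells (HOM minus WT -12.2 points, adjusted exact p = 0.124, not called).

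Tnfaip3, which encodes A20, the ubiquitin-editing enzyme that ends NF-kB signalling, showed no called region. Its start window stood at 2.51% in HOM (1.57 to 3.98), 5.18% in HET (3.80 to 7.04) and 3.59% in WT cells (2.50 to 5.15), and its far end at 90.2%, 92.0% and 89.1% in HOM, HET and WT cells. The interval of the difference between HOM and WT ran from -2.90 to 0.748 points at the start window. Both runs inside the gene were low in all libraries, the first at 16.3% in HOM, 8.57% in HET and 13.4% in WT cells and the other at 10.8% in HOM, 9.80% in HET and 16.9% in WT cells. The island over its start, with 56 CpGs, stood at 0% (0 of 519 reads) in HOM, 0.188% in HET and 0.337% in WT cells.

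Cd40, the receptor through which T cells activate B cells and the NF-kB pathways, was called in 1 region. A run of 14 CpGs beyond the more methylated end of its span, at chr2:165073192-165073858, stood at 26.1% in HOM (19.5 to 34.0), 12.3% in HET (7.99 to 18.4) and 13.3% in WT cells (8.60 to 20.1). HOM was 13.8 points above HET (adjusted exact p = 0.0468), and 12.8 points above WT, which was not called (adjusted exact p = 0.106). The call ended under 6 of 10 alternatives. The large run over the less methylated end of Cd40, with 49 CpGs, stood at 5.47% in HOM, 6.20% in HET and 7.49% in WT cells, and the end window there at 11.9% in HOM, 10.7% in HET and 13.2% in WT cells. The other 5 runs of the gene ran over 14.0 to 30.5% in HOM, 10.3 to 19.3% in HET and 18.3 to 29.2% in WT cells.

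Tnfrsf14 encodes HVEM, a receptor whose loss in lymphoma removes an inhibitory signal through BTLA. Stretches on both sides of its start were more methylated in HET than in the other libraries. The start itself had no methylated read in HET or WT cells and 1 in HOM cells. Inside the gene, the 250 bp bin centred 875 bp from the start stood at 24.6% in HOM, 36.1% in HET and 17.6% in WT cells. The bin at 1125 bp stood at 12.8% in HOM, 34.3% in HET and 13.5% in WT cells, and the bin at 1375 bp at 100% in each. These bins have no test. The window at its start side, at chr4:154928121-154929620, stood at 25.2% in HOM (21.4 to 29.5, 436 reads), 40.4% in HET (35.8 to 45.2, 413 reads) and 29.6% in WT cells (25.3 to 34.4, 388 reads). HET was 10.8 points above WT (adjusted exact p = 0.0325), at 14 of 25 CpGs with 7 the other way, and HOM -15.2 points from HET (adjusted exact p = 0.00019). HOM and WT differed by -4.41 points, which was not called (adjusted exact p = 0.417). Runs in and beside that window share its CpGs, and the first of them also reaches past the start into the gene. The first, at chr4:154926983-154928891, stood at 20.6% in HOM, 30.3% in HET and 20.2% in WT cells (HET minus WT 10.04 points, adjusted exact p = 0.018), and the other, at chr4:154929109-154929598, at 17.4% in HOM, 33.6% in HET and 19.2% in WT cells (HOM minus HET -16.1 points, adjusted exact p = 0.0359). The body stood at 75.6% in HOM, 79.9% in HET and 74.6% in WT cells, the only one of the 10 bodies not lower in HOM than in WT. The end windows of T cell genes called between HET and WT, 4 of 22 (2.52% of all end windows), were also higher in HET. Among the end windows on the start side of T cell genes, that of Cd3e stood at 55.1% in HOM, 77.0% in HET and 52.5% in WT cells. That of Zap70 stood at 61.3% in HOM, 80.1% in HET and 59.3% in WT cells, whereas that of Cd247 stood at 41.6% in HOM, 30.2% in HET and 36.7% in WT cells. The part of the mix of cells in the Tnfrsf14 result was not tested. The difference between HET and WT was no longer called under 5 of 10 alternatives, over which it ran from 8.54 to 11.1 points.

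The far end of Tnfrsf14 was read unevenly, and its calls rest on few CpGs. The window there stood at 42.9% in HOM (70 reads), 96.6% in HET (207 reads) and 85.4% in WT cells (41 reads), so that HOM minus WT was -42.5 points (adjusted exact p = 0.00055) and HOM minus HET -53.8 points (adjusted exact p = 4.02e-18). Of its 16 CpGs, 10 had no reads in HOM and 7 none in WT. On the 4 CpGs read in both, HOM was 9.52 points above WT. On the 6 CpGs read in both HOM and HET the difference was -52.9 points. It lay in 2 of them, at positions 154917806 (1 of 32 reads methylated in HOM, 24 of 26 in HET) and 154918714 (0 of 9 in HOM, 13 of 13 in HET), neither of which was read in WT. Every other HOM read in the window was methylated. A level near 0 beside one near 100% is a pattern that a base variant can give, and its part was not tested.

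Fas, the death receptor that removes activated and germinal centre B cells, was lower in HOM in several places. A run of 49 CpGs over its start, at chr19:34290347-34292024, stood at 8.70% in HOM (5.70 to 13.0, 230 reads), 22.0% in HET (18.3 to 26.1, 432 reads) and 19.7% in WT cells (15.5 to 24.8, 279 reads). HOM minus WT was -11.0 points (adjusted exact p = 0.013) and HOM minus HET -13.3 points (adjusted exact p = 0.000703). The plot of single CpGs shows that the start itself was unmethylated in all libraries and that the difference lay in CpGs on the slope of the valley inside the gene. HOM was lower than WT at 8 CpGs of 45 read in both, higher at 4, and equal at the rest. The call between HOM and WT ended under 3 of 10 alternatives (-19.7 to -9.70 points) and that between HOM and HET under 2 of 10. Farther inside the gene, the 250 bp bin centred 2375 bp from the start stood at 0% in HOM (50 reads), 64.2% in HET (67 reads) and 73.3% in WT cells (15 reads), and the next bin at 31.0% in HOM, 78.6% in HET and 66.7% in WT cells. These bins were picked from the plot of the starts after their values were seen and have no test. The window at the far end of Fas, with 8 CpGs, stood at 67.7% in HOM (55.6 to 77.8), 86.6% in HET (78.4 to 92.0) and 92.4% in WT cells (83.5 to 96.7), with HOM minus WT at -24.7 points (adjusted exact p = 0.00881). On the 7 CpGs read in both libraries it was -14.2 points and not called, and the call ended under 5 of 8 alternatives, down to -7.10 points with wider windows. The body of Fas stood at 70.8% in HOM, 79.2% in HET and 78.8% in WT cells, and HOM minus WT was -7.98 points (adjusted exact p = 6.26e-10), under the 10 points a call needs.

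Socs3, the inhibitor that JAK-STAT signalling induces against itself, had differences in both directions outside its island. A run of 8 CpGs in its 5′ flank, at chr11:117974779-117975392, stood at 7.58% in HOM (4.64 to 12.1, 198 reads), 19.5% in HET (14.5 to 25.6, 195 reads) and 23.3% in WT cells (17.3 to 30.7, 150 reads). HOM minus WT was -15.8 points (adjusted exact p = 0.00244), lower at 6 of 8 CpGs, and HOM minus HET -11.9 points (adjusted exact p = 0.0167). Another run of 8 CpGs past the 3′ end of the gene, at chr11:117965684-117965971, stood at 29.7% in HOM (23.7 to 36.5), 15.3% in HET (10.6 to 21.7) and 20.4% in WT cells (13.5 to 29.7), and HOM was 14.4 points above HET (adjusted exact p = 0.032), higher at 7 of 8 CpGs and lower at none. Both calls of the flank run ended under 3 of 10 alternatives, the smallest values being -8.42 points for HOM minus WT and -6.20 points for HOM minus HET (runs below 30%), and that of the 3′ run under 4 of 9. The island inside the gene, with 163 CpGs, stood at 4.59% in HOM, 3.23% in HET and 3.05% in WT cells (HOM minus WT 1.55 points, adjusted exact p = 0.421). The window at the start side stood at 31.9% in HOM, 31.4% in HET and 32.8% in WT cells. This window begins 471 bp from the annotated start of Socs3 and does not hold it.

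**Figure D4:**
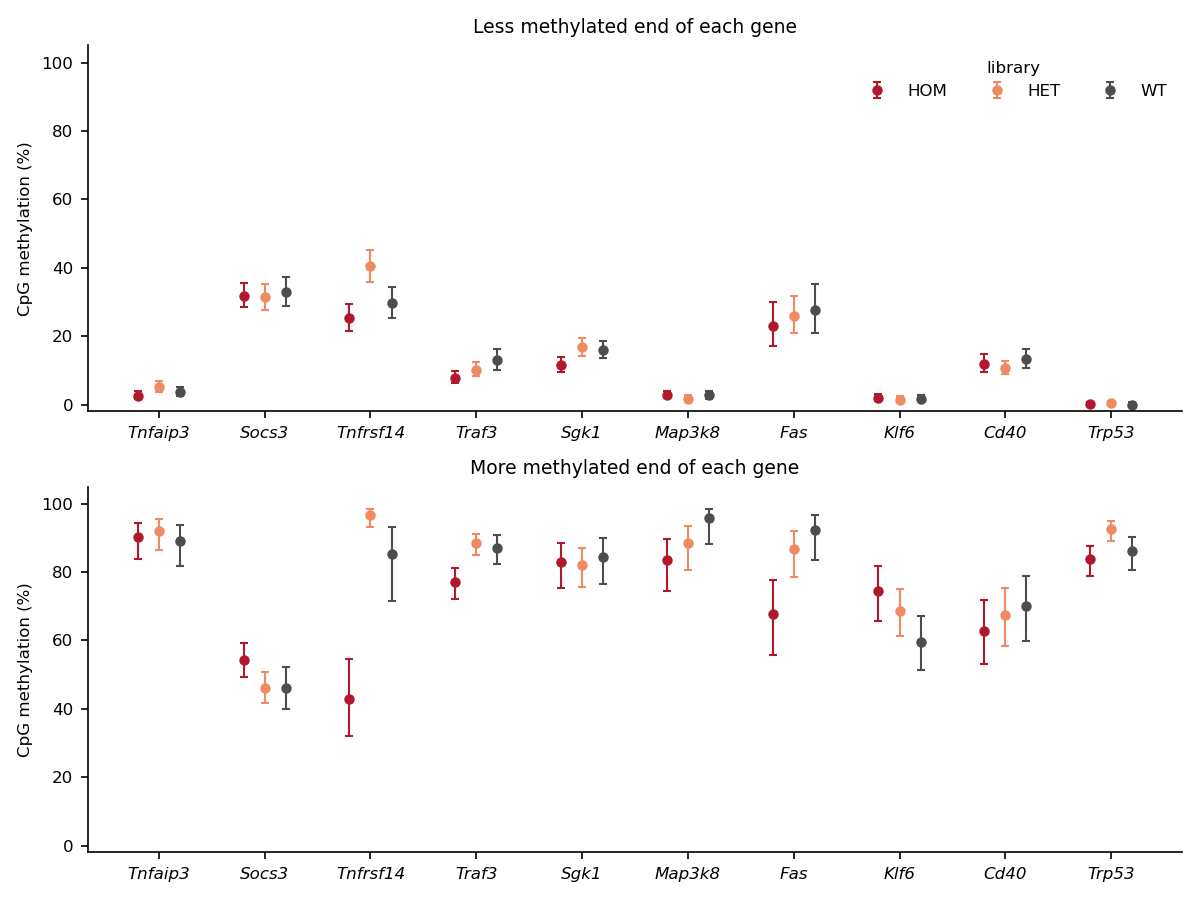
CpG methylation (%, points with 95% Wilson counting intervals) of the 2 end windows of each gene in the HOM, HET and WT libraries, the end with the lower WT level in the upper panel and the other in the lower one. HET stands above HOM and WT at the less methylated end of Tnfrsf14 (40.4%). HOM stands below WT at the more methylated ends of Tnfrsf14, Traf3 and Fas (42.9%, 77.0% and 67.7%). At that end of Tnfrsf14 only 4 CpGs were read in both libraries, and on them HOM stood 9.52 points above WT.

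Sgk1, a serum- and glucocorticoid-regulated kinase that acts on FOXO factors, had no called region among its 2 end windows, its body, 2 islands, 4 borders and 9 runs. Its long body, with 1333 CpGs, stood at 65.7% in HOM, 68.2% in HET and 71.0% in WT cells, and HOM minus WT was -5.30 points (interval -6.34 to -4.27, adjusted exact p = 2.51e-22). HET minus WT was -2.82 points there (adjusted exact p = 3.45e-07). The run of 64 CpGs that covers its start with 6 CpGs and leads up to that with 28 stood at 7.91% in HOM, 3.17% in HET and 8.83% in WT cells. HET was -5.66 points from WT (adjusted exact p = 4.68e-06) and HOM 4.75 points above HET (adjusted exact p = 3.88e-05), both under 10 points. A run deep in the gene, at chr10:21906768-21908166, stood at 37.3% in HOM, 28.4% in HET and 23.2% in WT cells (HOM minus WT 14.1 points, adjusted exact p = 0.068, not called). The island at the start with 28 CpGs stood at 0.490% in HOM, 0.0582% in HET and 0% (0 of 945 reads) in WT cells.

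Klf6, a zinc-finger transcription factor, also had no called region, and its body showed the largest difference of the 10 bodies. It stood at 34.5% in HOM (31.8 to 37.2), 39.6% in HET (37.3 to 42.0) and 43.0% in WT cells (40.2 to 45.8), with HOM minus WT at -8.55 points (adjusted exact p = 6.13e-05). The body joins an unmethylated part to a methylated one. Its 250 bp bin centred 1125 bp from the start stood at 0% in HOM, HET and WT cells. The bin at 3875 bp stood at 77.9% in HOM, 88.0% in HET and 85.2% in WT cells. A level pooled over both parts depends on how the reads of each library fall between them. The part of this in the body difference was not tested. The start window stood at 1.91% in HOM, 1.43% in HET and 1.77% in WT cells, and the run of 41 CpGs inside the gene at 3.92% in HOM, 6.05% in HET and 5.43% in WT cells. At the far end the order was the reverse, with 74.5% in HOM, 68.6% in HET and 59.4% in WT cells, and HOM minus WT of 15.1 points was not called (adjusted exact p = 0.103).

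Trp53, which encodes p53, had an almost unmethylated start in every library. The window there had 3 of 1140 methylated reads in HOM (0.263%), 5 of 1114 in HET (0.449%) and 0 of 609 in WT cells. The body stood at 58.6% in HOM, 59.4% in HET and 58.6% in WT cells, with an interval of HOM minus WT from -2.65 to 2.55 points. A run in the 5′ flank, inside the span of the neighbouring gene Wrap53, stood at 13.2% in HOM, 23.5% in HET and 30.1% in WT cells (HOM minus WT -16.9 points, adjusted exact p = 0.0734, not called). The run inside the gene stood at 39.3% in HOM, 30.3% in HET and 29.2% in WT cells (not called, adjusted exact p = 0.457).

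The bodies as a group moved with the genome. Of the 10, 9 were lower in HOM than in WT, and their median difference was -3.22 points, against -3.24 points over all 18301 bodies, of which 86.6% were lower. Of these, 6 passed an adjusted p of 0.05 between HOM and WT without reaching 10 points, namely Klf6, Fas, Sgk1, Cd40 (-5.13 points), Map3k8 (-3.88 points) and Traf3 (-2.57 points). Between HET and WT 5 bodies were lower and 5 higher, with a median of -0.108 points against -0.466 points over all bodies. Tnfrsf14 at 5.38 points (adjusted exact p = 0.00795) and Sgk1 passed the adjusted p.

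**Figure D5:**
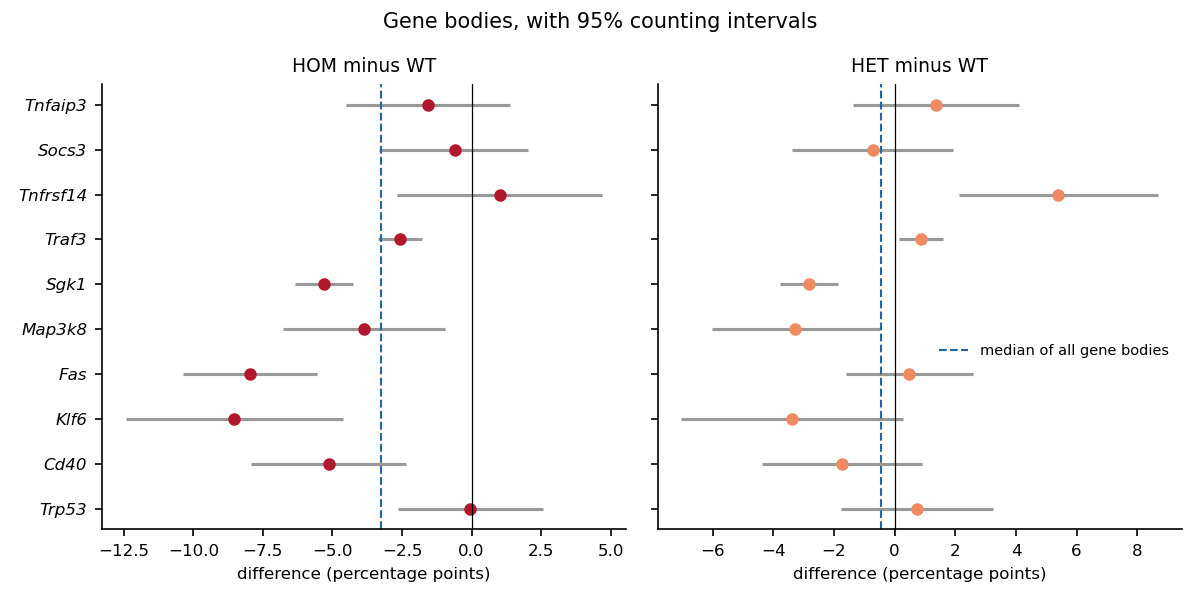
Difference in methylation of the 10 gene bodies (percentage points, with 95% Newcombe counting intervals) for HOM minus WT and HET minus WT, with the median of all gene bodies as a dashed line and 0 as a solid line. In HOM minus WT 9 of 10 genes lie below 0, Klf6 and Fas lowest, and in HET minus WT 5 lie below and 5 above, Tnfrsf14 highest.

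The width of the unmethylated valley around each start was measured as the distance to the middle CpG of the first stretch of 5 CpGs at 50% or more. Of 20 valley edges, 9 lay farther from the start in HOM than in WT, 4 nearer and 7 at the same CpG. The background was 22565 edges of genes with a tested RefSeq start below 10% in every library. Of these, 42.2% lay farther and 19.6% nearer, and the median shift was 0 bp. A shift of at least 200 bp between HOM and WT was found at 7 of the 20 edges (19.6% of background edges). It was found at 4 between HET and WT (16.1%) and at 8 between HOM and HET (17.8%). The 20 edges include those of Tnfrsf14 (start not tested) and of Map3k8 and Cd40 (less methylated gene end used). These genes did not meet the rule of the background, so the shares are not compared like with like. The Tnfaip3 valley reached 1148 bp upstream in HOM, 757 bp in HET and 705 bp in WT cells, and 2422 bp downstream in HOM, 1998 bp in HET and 1900 bp in WT cells. The upstream edge of Socs3 lay at 1404 bp in HOM and at 1064 bp in both HET and WT cells. The downstream edge of Cd40 lay at 1772 bp in HOM, 1311 bp in HET and 1297 bp in WT cells. For Tnfrsf14 the upstream edge lay at 1901 bp in HOM, 485 bp in HET and 813 bp in WT cells. The upstream edge of Fas was placed at 312 bp in HOM and HET and at 649 bp in WT cells. The CpG at 312 bp was itself unmethylated, with 0 of 7 reads in HOM, 0 of 8 in HET and 0 of 8 in WT cells. The 250 bp bin centred at -375 bp stood at 0% in each library, and that at -625 bp at 77.1% in HOM, 72.3% in HET and 70.7% in WT cells. The nearer edge therefore does not show a shorter valley in HOM and HET. The Sgk1 valley, the widest upstream, reached 3410 bp in all 3 libraries. Edges are single CpG positions with no test, and with a stretch of 3 CpGs instead of 5 the count of 7 became 4.

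Other genes of the same pathways were read at their end windows, from 6 lists with 104 genes that exclude the 10. Over all end windows 5.22% were called between HOM and WT, 2.52% between HET and WT and 4.34% between HOM and HET. The lists were not tested against the other windows. In the NF-kB list 4 of 45 windows were called between HOM and WT (1 higher, 3 lower in HOM), none between HET and WT and 3 between HOM and HET. The start window of Nfkb2, a subunit of the non-canonical pathway, stood at 62.3% in HOM, 77.6% in HET and 77.7% in WT cells (HOM minus WT -15.4 points, adjusted exact p = 0.0457). The far end of Otulin, an enzyme that removes linear ubiquitin chains, stood at 45.3% in HOM, 29.1% in HET and 30.3% in WT cells (HOM minus HET 16.2 points, adjusted exact p = 0.0371). In the list of TNF receptors and ligands 3 of 38 windows were called between HOM and WT (1 higher, 2 lower in HOM), 8 of 38 between HET and WT (21.1%, 5 higher and 3 lower in HET) and 2 between HOM and HET, both lower in HOM. The start window of Tnfrsf4, a receptor of activated T cells, stood at 73.3% in HOM, 83.4% in HET and 67.7% in WT cells (HET minus WT 15.7 points, adjusted exact p = 0.000564). The far end of Fasl, the ligand of Fas, stood at 71.5% in HOM, 62.3% in HET and 83.5% in WT cells (HET minus WT -21.1 points, adjusted exact p = 0.00462). The start window of Lta, the cytokine lymphotoxin alpha, stood at 33.5% in HOM, 37.1% in HET and 21.4% in WT cells (HET minus WT 15.7 points, adjusted exact p = 0.00571).

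In the remaining lists the counts are again to be read beside 5.22%, 2.52% and 4.34% of all end windows for HOM against WT, HET against WT and HOM against HET. JAK-STAT and SOCS genes had 2 of 42 windows called between HOM and WT, 1 between HET and WT and 2 between HOM and HET. Between HOM and WT these were the far end of Stat6, a mediator of interleukin-4 signals, at 76.4% in HOM, 66.4% in HET and 63.9% in WT cells, and the start window of Ptpn1, a phosphatase of JAK kinases, at 80.3% in HOM, 91.6% in HET and 92.1% in WT cells. The far end of Socs1, an inhibitor of the same family as Socs3, stood at 24.0% in HOM, 36.3% in HET and 23.8% in WT cells (HET minus WT 12.5 points, adjusted exact p = 0.0015). Among p53 targets and apoptosis genes 1 of 43 windows was called between HOM and WT, none between HET and WT and 1 between HOM and HET. That was the start window of Bbc3, which encodes the death factor PUMA, at 57.0% in HOM, 43.3% in HET and 35.3% in WT cells (HOM minus WT 21.7 points, adjusted exact p = 0.000177). Of the KLF family 2 of 18 windows were called between HOM and WT, both lower in HOM, 1 between HET and WT and none between HOM and HET. They belonged to Klf10, at 80.8% in HOM, 85.3% in HET and 91.4% in WT cells, and Klf13, at 81.9% in HOM, 81.8% in HET and 92.1% in WT cells. The SGK, AKT and FOXO list had none of 17 windows called in any comparison. The median differences of HOM minus WT over these lists ran from -1.54 to -0.518 points, against -1.64 points over all end windows.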

How the data were processed

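Per the labels' protocols, B cells of the spleen were enriched with magnetic beads that remove the other cells. From 200 ng of DNA, fragments of about 800 bp were bisulfite converted and read from both ends over 150 bp. Reads were processed on build mm10 with Trim Galore 0.2.8, Bismark, Bowtie2, Picard 1.91 and 2.3.0, BWA 0.7.13 and MethylDackel, per the submitters' processing notes, which give no order or role. The deposited table holds raw counts per CpG, methylated reads and covering reads, per the file headers, with no normalization. CpG positions of 31396 RefSeq promoter sequences were checked against the table, and 395568 of 395568 lay at a listed position.

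Counts were summed over regions of the autosomes with Python 3.11.15, numpy 2.4.6, pandas 2.3.3 and scipy 1.17.1. Levels carry 95% Wilson intervals, differences 95% Newcombe intervals, and libraries were compared with Fisher's exact test, adjusted by Benjamini and Hochberg over all regions of a kind. A model over replicates, the first choice, could not be fitted, since the table holds 1 pair of columns for each genotype. A count of 0 was read as allowing up to 3 reads. CpG islands were found from CpG positions alone (17 per CpG and -1 per base, longer than 200 bp, at least 6 CpGs per 100 bp). The mean of the 3 libraries defines low-methylated runs, and spans come from the RefSeq gene table. The tests were checked on simulated counts. Members, gene lists and tests were chosen with earlier results of these data known, and the starts, valley edges and the restriction to CpGs read in both libraries were added after the data were seen. All regions of the 10 genes were kept, and genes of the pathway lists were named where called, at most 4 per list. Where no replicates exist, p-values measure counting error alone, and they treat CpGs on the same read as separate observations. Alternatives covered averaging, read minimums, scaling, linked CpGs, call size and window sizes. Some items of the gene lists are not reported here.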

Additional observations from a re-analysis of the deposited data

How the results depend on the processing

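No paired analysis was possible because the table holds 1 pair of columns for each genotype, so no replicate block could be fitted and no replicate left out. No tested difference changed direction under any alternative run, but the far end of Tnfrsf14, too thin to test on the 4 CpGs read in both libraries, stood 9.52 points higher in HOM than in WT there. The counts of called regions moved most when the counts were divided by how many CpGs share 1 read of 150 bp, which leaves fewer independent reads. Low-methylated runs called between HOM and WT, HET and WT, and HOM and HET numbered 4, 2 and 7 as reported, then 1, 0 and 0 with divided counts, 2, 1 and 1 at 20 points, and 1, 0 and 2 for runs below 30%. Between HET and WT, 1 run was called with the mean of CpG levels and 1 where runs were found in the library not compared. End windows called between HOM and WT numbered 3 as reported, then 0 with the mean of CpG levels, with divided counts and with windows of 500 and 250 bp, and 1 with at least 100 reads, with CpGs of at least 5 reads, and on CpGs covered in both libraries. The 1 end window between HET and WT became 0 with the mean of CpG levels, CpGs of at least 5 reads, divided counts, 20 points and the smaller windows. The 3 between HOM and HET became 1 with divided counts and at 20 points. The 1 border between HOM and WT became 0 with the mean of CpG levels, CpGs of at least 5 reads, scaling to equal open sea, divided counts, 20 points, borders of 200 bp and CpGs covered in both. With borders of 1000 bp, 2 were called between HET and WT and 1 between HOM and HET. Valley edges shifted by at least 200 bp between HOM and WT numbered 7, and 4 with 3 CpGs. The cause of the other moves was not tested. Among single regions, the Traf3 run in the 5′ flank kept its call between HOM and WT under all 9 alternatives, at 43.6 to 47.0 points. Depth, at 9.18 to 12.9 reads per CpG, limits what short regions can show.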

Other observations

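Some B cell marker genes differed between libraries. The Blnk start window, a gene for an adaptor of the B cell receptor, stood at 30.5% in HOM, 24.3% in HET and 48.2% in WT cells (HOM minus WT -17.7 points, adjusted exact p = 8.89e-05; HET minus WT -24.0 points, adjusted exact p = 3.13e-10; Fisher's exact test). The Cd37 start stood at 22.0% in HOM, 18.8% in HET and 15.7% in WT cells. The start window of S100a8, a gene of neutrophils, stood at 52.2% in HOM, 59.7% in HET and 36.5% in WT cells. It was called for HET minus WT (23.2 points, adjusted exact p = 1.13e-06) and HOM minus WT (15.7 points, adjusted exact p = 0.00336). Of 24 end windows of B cell genes, 4 were called between HOM and WT and 5 between HET and WT, all lower in the mutant library (5.22% and 2.52% of all end windows).

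Among the 5750 CpGs of the 10 genes, 1, in Tnfrsf14, stood at 10% or below in 1 library and at 80% or above in the others, the pattern a base variant can give; there were 674 such CpGs on the autosomes. That count needs reads in all 3 libraries, so it leaves out the 2 CpGs at the far end of Tnfrsf14 that were almost unmethylated in HOM and almost fully methylated in HET, without reads in WT, and leaving out the counted CpGs could not change that window.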
